A study of Mus musculus with 8 samples.

Results

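The Bex family is a small group of genes named for brain expression and linkage to the X chromosome. Its members were taken here by symbol, as every probe set that the array annotation gives to Bex1, Bex2, Bex3, Bex4 or Bex6 alone. This found 5 genes of 18193, each with exactly 1 probe set, so 5 probe sets of the 45037 that were tested. A probe set is the group of short probes on the array that reads 1 transcript or a few related ones. No probe set named a Bex gene among several genes, and no member could be compared between probe sets of its own. The family was taken up because Bex1 and Bex4 had been chosen by their measured fall with age in these same mice, so the values of those 2 genes are a description and carry no test. Bex2, Bex3 and Bex6 joined by name alone, and for them the age comparison was tested.

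RNA came from the distal trachea and the carina, the ridge where the trachea divides, of C57Bl/6 female mice. There were 4 old mice (14 month) and 4 young mice (2 month), with no genetic change or treatment named in either group, and each mouse was read on 1 Affymetrix Mouse Genome 430 2.0 array. The comparison asked how the tissue differs between these ages, and here whether the other Bex genes moved with Bex1 and Bex4. The deposited value is a signal on a linear scale in arbitrary units, scaled to the same trimmed mean of 500.002 on each array, with array medians of 149.6 to 160.5. Markers of the labelled tissue were present at both ages: over the 8 mice the signal of Foxj1, the regulator of multiciliated cells, was 2001 to 3104, and that of Scgb1a1, a product of secretory cells, was 25658 to 31083. Acta2 of smooth muscle gave 23657 to 27481 and Col2a1 of cartilage 1304 to 3617. The whole tissue was measured, so fewer cells of a type and less RNA per cell cannot be told apart in any value below.

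Bex proteins are short, mostly unstructured proteins that occur in mammals. They have been described mainly in neurons, endocrine cells and muscle. Bex3, also called NADE or Ngfrap1, binds the intracellular death domain of the neurotrophin receptor p75, and Bex1 has been reported to bind the same receptor and to influence the cell cycle and differentiation of neural and muscle precursors. Bex2 has been studied mostly in tumour cells and in transcription complexes of the brain, and Bex4 as a protein that binds tubulin. On the X chromosome the genes lie among the Tceal genes, which are sequence relatives, and near the Armcx and Gprasp genes. Bex6 differs in place: the RefSeq annotation of the GRCm38.p6 build puts it on chromosome 16. Symbols have also moved within the family. RefSeq lists Bex4 as an old name of Bex1 and Bex1 as an old name of Bex2, so older work may use these names for other members.

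The stretches of genome before the 4 X-linked starts fell into pairs. They are printed because Bex1 and Bex4, the pair chosen for its fall, shared most of theirs. Each line holds the 250 bases before the annotated start, 5′ to 3′ along the strand of the gene, from RefSeq on GRCm38.p6. Capitals mark the longest stretch that is letter for letter the same in both genes of a pair.

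Bex1: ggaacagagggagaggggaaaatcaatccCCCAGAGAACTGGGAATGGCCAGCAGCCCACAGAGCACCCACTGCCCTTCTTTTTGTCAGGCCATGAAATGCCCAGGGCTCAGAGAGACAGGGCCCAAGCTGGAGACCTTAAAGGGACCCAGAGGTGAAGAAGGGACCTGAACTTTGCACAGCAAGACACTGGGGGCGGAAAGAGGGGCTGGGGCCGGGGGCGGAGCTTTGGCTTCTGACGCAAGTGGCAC

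Bex4: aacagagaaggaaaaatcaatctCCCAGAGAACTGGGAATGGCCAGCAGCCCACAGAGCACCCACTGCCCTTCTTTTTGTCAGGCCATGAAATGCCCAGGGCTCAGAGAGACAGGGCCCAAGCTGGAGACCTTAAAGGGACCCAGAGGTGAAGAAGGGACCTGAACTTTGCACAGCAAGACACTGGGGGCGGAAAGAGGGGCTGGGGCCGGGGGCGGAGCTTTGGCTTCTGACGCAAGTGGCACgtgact

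The Bex1 window is chrX:136215514-136215763 on the minus strand and the Bex4 window chrX:136138746-136138995 on the plus strand. The identical stretch was 221 bases long. It ran from base -221 to base -1 before the Bex1 start and from -227 to -7 before the Bex4 start, and it grew to 271 bases when the first 50 bases after each start were read as well, so that the shorter stretch stops where the Bex1 window is cut. Of the 239 overlapping words of 12 bases in the Bex1 window, 210 also stood in the Bex4 window. Over all 32851 mouse windows of this kind, no other window shared more than 5 such words with either gene. Bex2 and Bex3 form the other pair.

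Bex2: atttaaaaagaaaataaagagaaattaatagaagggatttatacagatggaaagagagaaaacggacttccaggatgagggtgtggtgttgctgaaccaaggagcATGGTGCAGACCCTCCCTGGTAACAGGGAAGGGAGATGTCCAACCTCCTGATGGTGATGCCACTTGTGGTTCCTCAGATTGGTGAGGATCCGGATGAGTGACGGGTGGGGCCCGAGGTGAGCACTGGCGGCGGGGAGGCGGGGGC

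Bex3: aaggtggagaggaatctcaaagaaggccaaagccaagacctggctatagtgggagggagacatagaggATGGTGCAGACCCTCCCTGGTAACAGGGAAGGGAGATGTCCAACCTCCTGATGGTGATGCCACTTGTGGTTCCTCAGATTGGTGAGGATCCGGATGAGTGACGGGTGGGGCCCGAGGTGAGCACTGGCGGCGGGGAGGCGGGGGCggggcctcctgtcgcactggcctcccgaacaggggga

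The Bex2 window is chrX:136068237-136068486 on the minus strand and the Bex3 window chrX:136270003-136270252 on the plus strand. Their identical stretch was 145 bases long, from -145 to -1 before Bex2 and from -182 to -38 before Bex3, and 134 of 239 words of 12 bases were shared. Across the pairs nothing of that kind was found: the longest identical stretch between a Bex1 or Bex4 window and a Bex2 or Bex3 window was 8 to 9 bases, with 0 shared words of 12. The Bex6 window likewise shared 0 such words with any other member. The shared letters thus join Bex1 to Bex4 and Bex2 to Bex3, within a family whose X-linked members lie in the order Bex2, Bex4, Bex1 and Bex3.

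**Figure D1:**
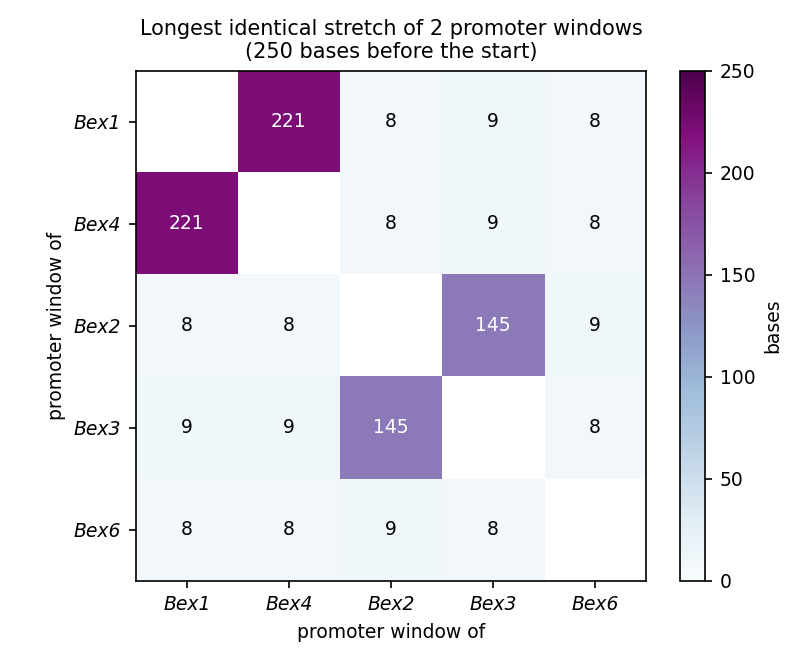
Longest identical stretch, in bases, between the windows of 250 bases before the annotated starts of each pair of Bex genes, with darker squares for longer stretches. Bex1 with Bex4 (221 bases) and Bex2 with Bex3 (145 bases) stand apart from all other pairs, which share 8 or 9 bases in a row.

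Some short motifs were looked up on both strands of the same windows, as letters only. GGGCGG, a GC box, occurred 2 times each before Bex1 and Bex4, 1 time before Bex3 and 0 times before Bex2 and Bex6, with another copy across the Bex2 start, and it is in 32.7% of all mouse windows. TGACG, the core of a cyclic AMP response element, occurred 1 time in each of the 4 X-linked members and in 17.8% of all windows. The E box CACGTG stood at bases -9 to -4 before Bex4 and is in 6.02% of all windows. The same letters lay across the annotated Bex1 start, from -3 to 3, outside the window by its cut alone. CCAAT occurred 1 time each before Bex2, Bex3 and Bex6 and in 33.8% of all windows. TATAAA occurred before Bex2 alone among the 5 and in 12.4% of all windows. The GC content of the windows was 59.6% for Bex1, 57.6% for Bex4, 52.4% for Bex2, 61.6% for Bex3 and 45.2% for Bex6, beside a median of 52.4% over all windows. These are matches of letters, and the arrays hold no measurement of binding at any of them.

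Bex1 was lower in every old mouse. Its signal was 417.6, 438.0, 441.6 and 353.5 in old mice 1, 2, 5 and 6, and 887.2, 916.2, 940.1 and 1046 in young mice 3, 4, 7 and 8. The ages were far apart, with the highest old mouse at 441.6 and the lowest young mouse at 887.2. The mean signal of the old mice was 413 ± 40.8 (SD, n = 4). That of the young mice was 947 ± 69.1 (SD, n = 4). By the means of the log2 signal, old trachea held 43.5% of the young level. On the log2 scale the difference of old minus young was -1.20 with a standard error of 0.105 and a 95% interval of -1.45 to -0.96. It was -1.08 within mice 1 to 4 and -1.33 within mice 5 to 8, each a set of 2 old and 2 young mice by their numbers.

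Bex4 was lower still in relation to its young level. Its signal was 132.7, 159.3, 123.5 and 142.0 in old mice 1, 2, 5 and 6, and 404.4, 344.5, 359.2 and 453.9 in young mice 3, 4, 7 and 8. Again no old mouse came near a young one. The mean signal was 139 ± 15.3 (SD, n = 4) at the old age and 391 ± 49.4 (SD, n = 4) at the young age, or 35.7% of the young level by log2 means. The log2 difference was -1.48 with a standard error of 0.126 and a 95% interval of -1.78 to -1.19, with -1.36 within mice 1 to 4 and -1.61 within mice 5 to 8. Among the 22518 brighter probe sets, ordered by log2 difference, Bex4 had the fall of rank 5 and Bex1 that of rank 12. The mouse with the highest Bex1 signal, young mouse 8, also had the highest Bex4 signal, whereas the lowest signals were those of old mouse 6 for Bex1 and old mouse 5 for Bex4. The probes of Bex1 and Bex4 were not read as sequences, and whether the transcript of 1 gene also binds the probe set of the other was not tested.

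**Figure D2:**
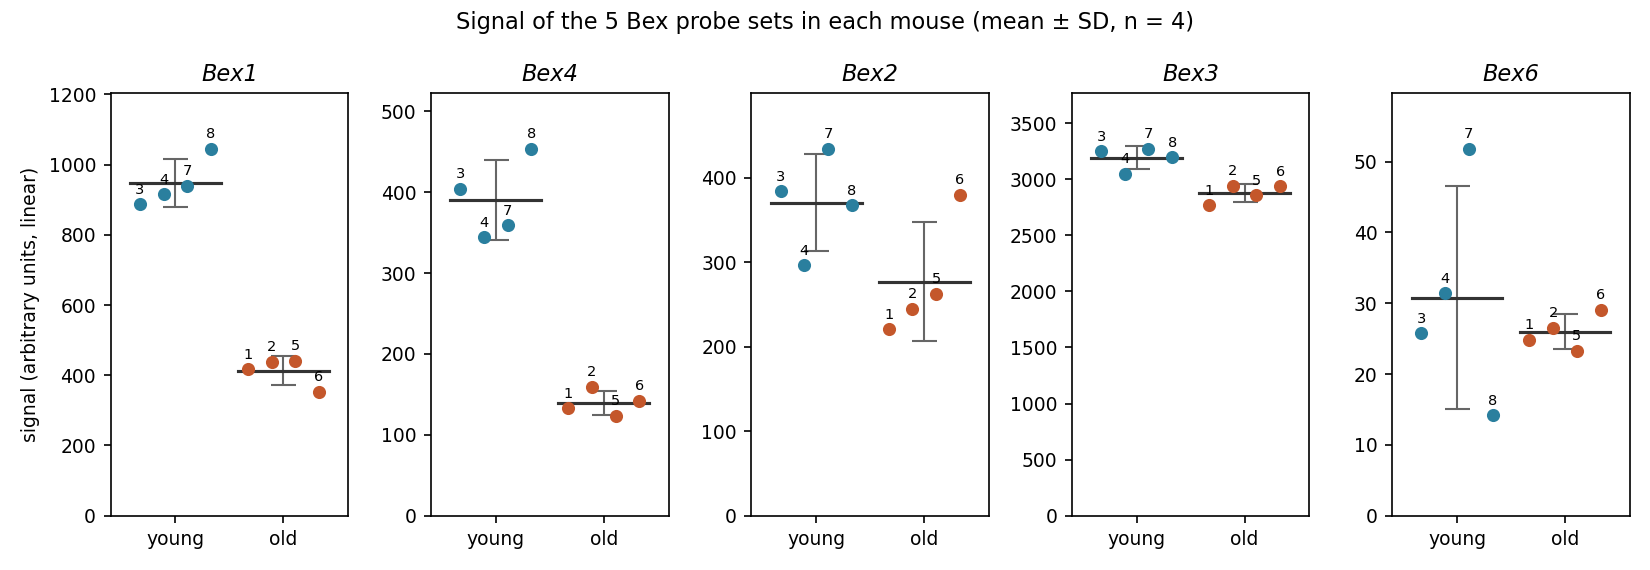
Signal of each Bex probe set in arbitrary units on a linear scale from 0, with 1 point for each mouse, labelled with the number of the mouse, and with bars for the mean and SD of 4 mice. The old mice lie below all young mice for Bex1, Bex4 and, by a small margin, Bex3, while the ages overlap for Bex2 and Bex6.

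Bex2 was lower on average in old mice, but its ages overlapped and the difference did not pass the test. Its signal was 220.8, 244.8, 262.5 and 379.7 in old mice 1, 2, 5 and 6, and 384.0, 296.3, 434.5 and 367.4 in young mice 3, 4, 7 and 8. Old mouse 6 was higher than young mice 4 and 8, whereas the other old mice were below all young mice. The means were 277 ± 70.6 (SD, n = 4) and 371 ± 57.1 (SD, n = 4), or 73.8% of the young level by log2 means. The log2 difference was -0.44 with a standard error of 0.195 and a 95% interval of -0.89 to 0.02 (limma, adjusted p = 0.463 over all probe sets). The interval reaches from no difference to a fall of nearly 0.9, and it ends short of the mean falls of Bex1 and Bex4.

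Bex3, the p75 partner, differed little between the ages. Its signal was 2769, 2942, 2859 and 2936 in old mice 1, 2, 5 and 6, and 3251, 3047, 3273 and 3196 in young mice 3, 4, 7 and 8. All old mice lay below all young mice, but by little, with the highest old mouse at 2942 and the lowest young mouse at 3047. Old mice held 90.1% of the young level by log2 means, with signal means of 2877 ± 81.0 (SD, n = 4) and 3192 ± 102 (SD, n = 4). The log2 difference was -0.15 with a standard error of 0.0732 and a 95% interval of -0.32 to 0.02 (limma, adjusted p = 0.505). A fall of the size seen in Bex1 or Bex4 is outside that interval.

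Bex6, the member on chromosome 16, gave a dim signal of 24.9, 26.5, 23.3 and 29.1 in old mice 1, 2, 5 and 6, and of 25.8, 31.4, 51.8 and 14.2 in young mice 3, 4, 7 and 8. The old mice lay inside the range of the young. The log2 difference was -0.10 with a standard error of 0.356 and a 95% interval of -0.93 to 0.73 (limma, adjusted p = 0.944), so that neither a fall nor a rise of moderate size was detectable. Without young mouse 7 the sign of this difference turned, to 0.20. The table has no detection call, and a signal this low does not show that the gene was transcribed.

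Over the family, 2 of 5 member probe sets, Bex1 and Bex4, were lower at an adjusted p under 0.05 and 0 were higher, where 0.0178% of all probe sets were lower and 0.0533% higher. Since these same genes were chosen by this contrast, nothing is read from that count, which moreover fell to 0 or 1 when any single mouse of the 8 was left out. It was 1 without old mouse 6 or young mouse 8 and 0 without any of the others. Of the 3 members that joined by name alone, all had negative differences and 1, Bex3, had ages that did not overlap, beside 3.75% of all probe sets lower and 4.05% higher without overlap. Bex3 lost that separation when each array was centred on its median. With Bex1 and Bex4 the count without overlap was 3 of 5 and the median difference -0.44, beside -0.01 over all 45037 probe sets, and nothing is read from these since the choice of Bex1 and Bex4 enters both. The fall of Bex1 and Bex4 was thus not detected at its size in Bex2 or Bex3, while the Bex6 interval is too wide to compare.

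The genes that lie between and around the Bex genes did not fall with them by this test. In the RefSeq order the X-linked members run Bex2, Nxf3, Bex4, Tceal8, Tceal5, Bex1, LOC115489115, Tceal7, Tceal9 and Bex3, counting protein-coding genes. Nxf3, a relative of the nuclear RNA export factors that lies between Bex2 and Bex4, differed by 0.34 with a standard error of 0.294 at a dim signal of 34.6 in old and 28.8 in young mice (limma over genes, adjusted p = 0.660). Tceal8, beside Bex4, differed by -0.09 (adjusted p = 0.621) at 2184 in old and 2328 in young mice. Tceal5 and LOC115489115 were not analysed here. Up to 5 protein-coding genes on each side of each X-linked Bex gene gave 16 neighbours, of which 9 were measured. At an adjusted p under 0.05, 0 were lower and 0 higher in the limma fit over genes, where 0.181% of all genes were lower and 0.368% higher. At an unadjusted p under 0.05, 1 was lower and 1 was higher, where 7.28% of all genes were lower and 7.31% higher, and the median difference was -0.03. The 10 measured neighbours of Bex6 on chromosome 16 also gave 0 lower and 0 higher, with 1 lower and 1 higher unadjusted and a median of -0.02.

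**Figure D3:**
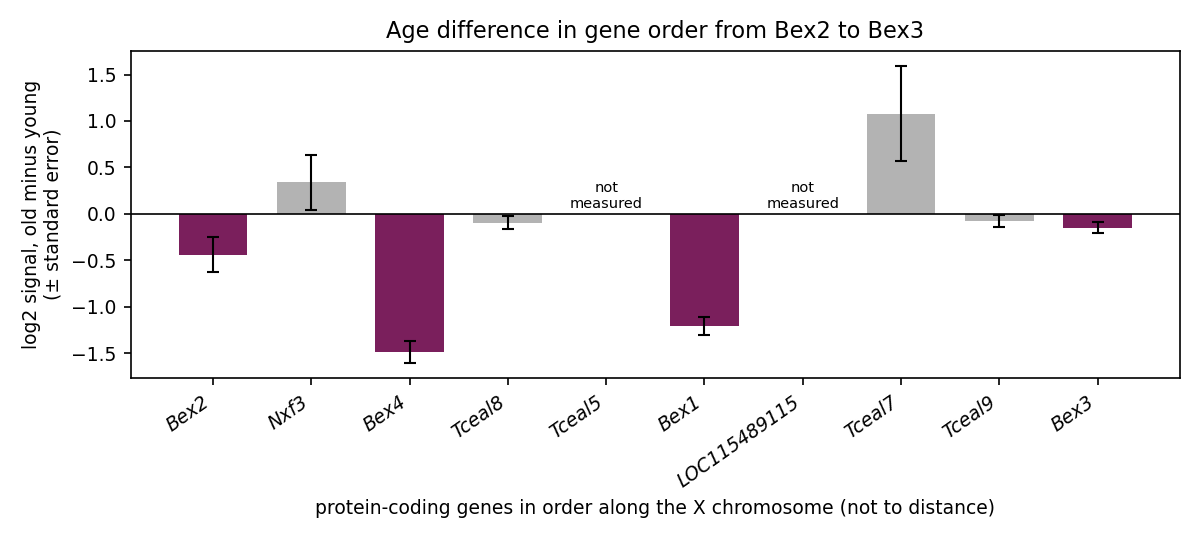
Log2 difference of old minus young, with the standard error from the fit over genes, for the protein-coding genes from Bex2 to Bex3 in their order along the X chromosome, not to distance. Purple bars are Bex genes and grey bars the genes between them. Bex4 and Bex1 stand at -1.48 and -1.20 with Tceal8 at -0.09 and an unmeasured gene between them, and the tall grey bar of Tceal7 is a dim gene with a wide error.

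The median difference of X-linked genes was near 0. Of 614 measured genes on it outside the family, 2 were lower at an adjusted p under 0.05 and 0 were higher, against 29 lower and 65 higher of 17523 genes placed on other chromosomes. At an unadjusted p under 0.05 there were 54 lower (8.79%) and 44 higher (7.17%) on the X, beside 7.22% lower and 7.30% higher on other chromosomes. The median was -0.002 on the X and -0.005 elsewhere. The 2 that fell were named after their values were seen. Col4a6, a chain of basement membrane collagen, averaged 786 in old and 1210 in young mice, a log2 difference of -0.62 with a standard error of 0.0820 (adjusted p = 0.0320). Xpnpep2, a membrane-bound aminopeptidase, averaged 88.1 in old and 143 in young mice, a difference of -0.70 with a standard error of 0.0999 (adjusted p = 0.0386). The Col4a6 call was lost on leaving out any single mouse, and the Xpnpep2 call on leaving out any but old mouse 1.

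The Tceal genes encode small proteins related to the elongation factor TFIIS and are the closest relatives of the Bex genes. Of 7 on the list, 4 were measured, and 0 passed the test in either direction, adjusted or unadjusted. Tceal9 averaged 11044 in old and 11646 in young mice, a difference of -0.08 (adjusted p = 0.629), and Tceal1 differed by -0.03 (adjusted p = 0.905). Tceal7 leaned the other way, with 16.4 to 53.1 in old and 8.08 to 27.6 in young mice. Its difference of 1.08 had a standard error of 0.516 (adjusted p = 0.389), and old mouse 2, at 16.4, lay among the young. The median of the 4 differences was -0.05.

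The Armcx genes encode armadillo-repeat proteins, some of them on mitochondria, and the Gprasp genes encode proteins that sort G protein-coupled receptors. Of their 9 measured genes, 0 passed in the lower and 0 in the higher direction after adjustment, and 4 were lower and 1 higher at an unadjusted p under 0.05, beside 7.28% and 7.31% of all genes. There were 8 negative differences, with a median of -0.17 beside -0.005 over all genes. In 3 genes all old mice were below all young mice, where 5.11% of all genes were lower and 5.02% higher without overlap. Bhlhb9, also known as Gprasp3, had 841 to 969 in old and 1039 to 1197 in young mice, a difference of -0.26 with a standard error of 0.0798 (adjusted p = 0.198). Armcx1 had 403 to 420 in old and 448 to 593 in young mice and differed by -0.30 (adjusted p = 0.208). Armcx3 had 1067 to 1170 and 1188 to 1273 and differed by -0.15 (adjusted p = 0.332). These differences are small beside those of Bex1 and Bex4 and none passed the test.

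The remaining members of that list were spread around them. Armcx4 differed by -0.42 (adjusted p = 0.287), Armcx2 by -0.22 and Armcx5 by -0.17. Gprasp2 differed by -0.11 and Armcx6, at a dim signal of 41.9 to 89.1, by -0.05. Gprasp1 was the exception in sign, with 1687 to 2215 in old and 1548 to 1778 in young mice and a difference of 0.24 (adjusted p = 0.338).

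**Figure D4:**
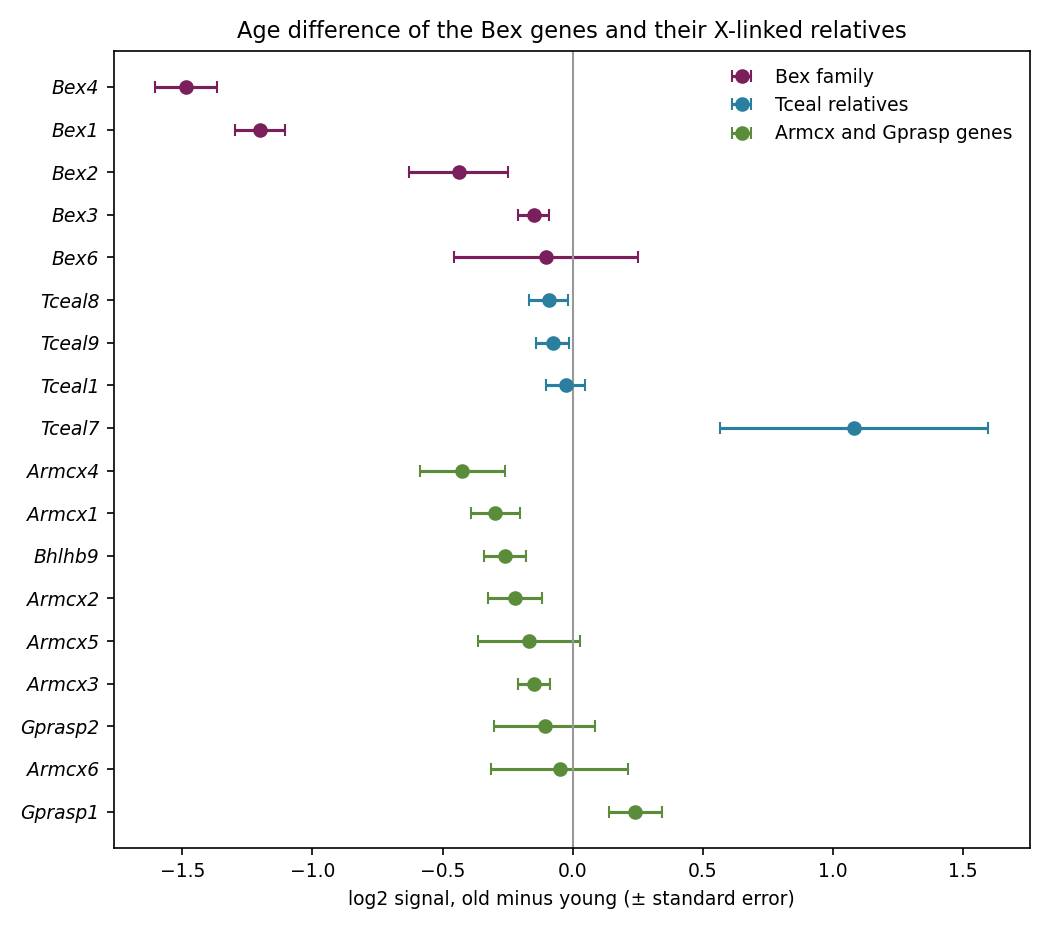
Log2 difference of old minus young for each measured Bex, Tceal, Armcx and Gprasp gene, as a point with its standard error from the fit over genes. Bex4 and Bex1 lie at -1.48 and -1.20, while the measured X-linked relatives lie between -0.42 and 0.24 except for Tceal7 at 1.08, whose error is wide.

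The receptor that Bex1 and Bex3 are known to bind showed no detectable difference. Ngfr, which encodes p75 and in the airway also marks basal cells, averaged 332 ± 39.9 (SD, n = 4) at the old age and 328 ± 103 (SD, n = 4) at the young age, with a log2 difference of 0.06 with a standard error of 0.207 (adjusted p = 0.932). It is given outside the naming rule because a result turns on it. Of the 15 measured genes of the p75 list of 20, which holds neurotrophins, receptors and adaptors, 0 were lower and 0 higher, adjusted or unadjusted, and the median difference was -0.02. Irak1, a kinase that p75 signalling recruits, differed by -0.31 (adjusted p = 0.389). Sort1, the co-receptor sortilin, differed by -0.15 (adjusted p = 0.393), and Ndn, the growth suppressor necdin, by -0.16 (adjusted p = 0.432). Ntrk2, the receptor TrkB, had 944 to 1037 in old and 831 to 942 in young mice, a difference of 0.12 (adjusted p = 0.477), which turned to -0.0977 when its probe sets were averaged.

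Other proteins reported to meet Bex proteins gave a like picture. Of 10 measured genes of 13, 0 passed in either direction after adjustment, with 1 lower and 0 higher unadjusted, and the median was -0.03. Map1lc3b, the autophagosome protein LC3B, had 7794 to 8401 in old and 8245 to 10496 in young mice and differed by -0.22 (adjusted p = 0.301). Sirt2, a tubulin deacetylase, differed by -0.15 (adjusted p = 0.478). Omp, the olfactory marker protein that Bex1 was reported to bind, differed by 0.38 (adjusted p = 0.501), and Sqstm1, the autophagy receptor p62, by -0.09 (adjusted p = 0.652).

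Bex genes are best known from neurons, so marker lists of the cells that the trachea can hold were read beside them. The unadjusted counts that follow stand beside 7.28% of all genes lower and 7.31% higher at an unadjusted p under 0.05. Of 21 measured neuronal markers, 0 were lower and 0 higher, with 2 lower and 1 higher unadjusted, 13 negative differences and a median of -0.19. Their summed signal was 3253 to 3985 in old and 3293 to 4432 in young mice, so the ages overlapped. Dbh, which makes noradrenaline in sympathetic nerves, differed by -0.27 (adjusted p = 0.249), and Prph, a neurofilament of peripheral neurons, by -0.53 (adjusted p = 0.286). Syt1, the calcium sensor of synaptic vesicles, differed by -0.35 (adjusted p = 0.357) and Tac1, the precursor of substance P, by 1.08 (adjusted p = 0.279). Dbh had 147 to 172 in old and 178 to 221 in young mice without overlap. None of the listed neuronal markers was at 0, since the table holds no signal of 0.

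Schwann cells, which wrap peripheral nerves, had 13 measured markers, of which 0 passed in either direction and 3 were lower unadjusted, with a median of -0.12. Their summed signal was 13782 to 14818 in old and 14624 to 15972 in young mice. Mbp, a myelin protein, differed by -0.35 (adjusted p = 0.171), Foxd3, a neural crest regulator, by -0.40 (adjusted p = 0.321), Erbb3, a neuregulin receptor, by -0.24 (adjusted p = 0.337) and Mal, a membrane sorting protein of myelin, by 0.34 (adjusted p = 0.364). The part of nerve in the fall of Bex1 and Bex4 was not tested.

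The neuroendocrine list had a higher summed signal in old mice, most of it from 2 genes, Scg2 and Calcb. Of 12 measured markers, 0 were lower and 1 higher, and the summed signal was 1134 to 1584 in old and 932 to 1105 in young mice, without overlap. Without those 2 genes the mean sum was 908 in old and 865 in young mice, and 4 of the 12 differences were negative. Scg2, a secretory granule protein, had 130 to 172 in old and 32.9 to 59.1 in young mice, a difference of 1.61 with a standard error of 0.196 (adjusted p = 0.0286). That call held without young mouse 8 and was lost on leaving out any other single mouse. Calcb, a calcitonin gene-related peptide that nerves also make, differed by 1.65 (adjusted p = 0.0673). Chga, which defines these cells, had a dim mean of 60.1 in old and 43.9 in young mice.

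Of 12 basal cell markers 0 were lower and 0 higher, 1 lower and 7 higher unadjusted (7.28% and 7.31% of all genes), with a median of 0.28 and a summed signal of 26875 to 30721 in old and 21557 to 26177 in young mice. Hs3st1, a heparan sulfate sulfotransferase, differed by 0.60 (adjusted p = 0.0772), Dapl1 by 0.39 (adjusted p = 0.111) and Icam1, an adhesion molecule, by 0.48 (adjusted p = 0.169). Krt14, a basal keratin, differed by 2.21 (adjusted p = 0.118) at a dim mean of 124 in old and 26.7 in young mice. Of the 12 differences 9 were positive and 3 negative, those of Snai2 (-0.27), Aqp3 (-0.10) and Trp63 (-0.05). Much of the difference in the sum lay in Krt15, which averaged 10912 in old and 8881 in young mice. Oesophagus markers had 7 measured, 0 called, 1 lower and 1 higher unadjusted, and a sum of 1826 to 2883 in old and 1247 to 1490 in young mice. Thyroid markers had 6 measured, 0 called, 0 lower and 1 higher unadjusted, and a sum of 383 to 455 in old and 267 to 558 in young mice. The oesophagus sums did not overlap, but Krt4, a keratin of squamous epithelium, carried the whole difference, with 1422 in old and 540.5 in young mice (adjusted p = 0.0682). Without it the mean sum was 806 in old and 839 in young mice, and 3 of the 7 differences were negative. The thyroid sums overlapped.

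The summed signals of fibroblast markers were lower in all old mice than in any young mouse, and those of smooth and skeletal muscle overlapped at their edges alone, with old mice on the lower side. Of 18 fibroblast markers 1 was lower and 0 higher, with 8 lower and 0 higher unadjusted (7.28% and 7.31% of all genes). Without overlap of the ages 7 were lower and 0 higher, where 5.11% of all genes were lower and 5.02% higher. The median was -0.33, with a sum of 90479 to 100344 in old and 114316 to 131387 in young mice. The 1 called lower was Col1a2, a chain of type I collagen, with a difference of -0.58 and a standard error of 0.0875 (adjusted p = 0.0445). That call was lost on leaving out any single mouse. Much of the difference in the sum lay in collagens: Col3a1 averaged 12212 in old and 20584.5 in young mice, and Col1a2 11826 and 17742. Col1a1 differed by -1.58 (adjusted p = 0.0870), Mfap4 by -1.26 (adjusted p = 0.0702) and Pi16 by -0.73 (adjusted p = 0.134). Some other markers of the list differed little, with Pdgfra at -0.06, Dcn at -0.07 and Lum at 0.007. Of the 18 differences 15 were negative and 3 positive. Of 10 airway smooth muscle markers 0 were called, with 5 lower and 0 higher unadjusted (7.28% and 7.31% of all genes) and a median of -0.19. Of the 10 differences 9 were negative and 1 positive. Without overlap of the ages 4 were lower and 0 higher (5.11% and 5.02% of all genes). Myh11 differed by -0.41 (adjusted p = 0.127). The smooth muscle sum was 88880 to 101182 in old and 100814 to 114669 in young mice. Of 22 skeletal muscle markers 0 were called and 4 lower and 1 higher unadjusted, with a median of 0.16 although the sum was lower, at 3298 to 4565 in old and 4563 to 6310 in young mice. Tnnt3, the fast muscle troponin T, averaged 785 in old and 1614 in young mice and differed by -1.09 (adjusted p = 0.106). Tnni2 averaged 1047 in old and 1621 in young mice, a difference of -0.64, and most of the difference in the sum lay in these genes. Chrna1 went the other way, by 1.46 with a standard error of 0.503, at a dim mean of 55.6 in old and 23.3 in young mice. Of the 22 differences 10 were negative and 12 positive. Of 17 cartilage markers 0 were called, with 4 lower and 1 higher unadjusted (7.28% and 7.31% of all genes) and a median of -0.18. Of the 17 differences 13 were negative and 4 positive. Col10a1 differed by -1.20 (adjusted p = 0.252), Col9a1 by -1.01 (adjusted p = 0.186) and Acan by -0.56 (adjusted p = 0.188). Comp went the other way, by 0.66 (adjusted p = 0.150). The cartilage sums overlapped, at 52644 to 61175 in old and 40634 to 77636 in young mice. Of 15 airway epithelial markers 0 were called, 1 lower and 1 higher unadjusted, and the sum was 137035 to 158610 in old and 143857 to 158280 in young mice. The part of these tissues in the fall of Bex1 and Bex4 was not tested.

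Genes were also ordered by how closely their signal followed Bex1 and Bex4 over the 8 mice, as the mean absolute difference of log2 signals that were each centred on their own mean. Only genes brighter than the median gene entered. Since Bex1 and Bex4 were chosen for a fall with age, genes that follow them differ by age too, and these values are a description with no test. For Bex1, among 9095 genes, the closest was Cckar, the receptor of cholecystokinin, at 0.12. It had 1059 to 1298 in old and 2274 to 2620 in young mice, a log2 difference of -1.08. Next came Hspb2, a small heat shock protein of muscle, at 0.19, Nrep, a small protein of regenerating nerve and of fibroblasts, at 0.20, D130037M23Rik at 0.20 and Fbxo32, the muscle ubiquitin ligase atrogin-1, at 0.20. Their log2 differences ran from -1.05 for Fbxo32 to -0.81 for Nrep.

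For Bex4, among 9096 genes, the closest was Bex1 itself, at 0.17, followed by Cckar at 0.21. After them came A2m, the protease inhibitor alpha-2-macroglobulin, at 0.27, and Pcp4, a small calmodulin-binding protein, and Synpo2l, an actin-binding protein of muscle, both at 0.29. Bex3 stood at rank 1642 for Bex1 and 1652 for Bex4. Bex4, Bex2 and Bex6 were dimmer than the median gene and were not ranked. Bex1 was thus the nearest gene to Bex4 by this measure. The measure also depends on the size of a difference, and that of Bex3 was small, at -0.15, so its ranks say little about its pattern.

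**Figure D5:**
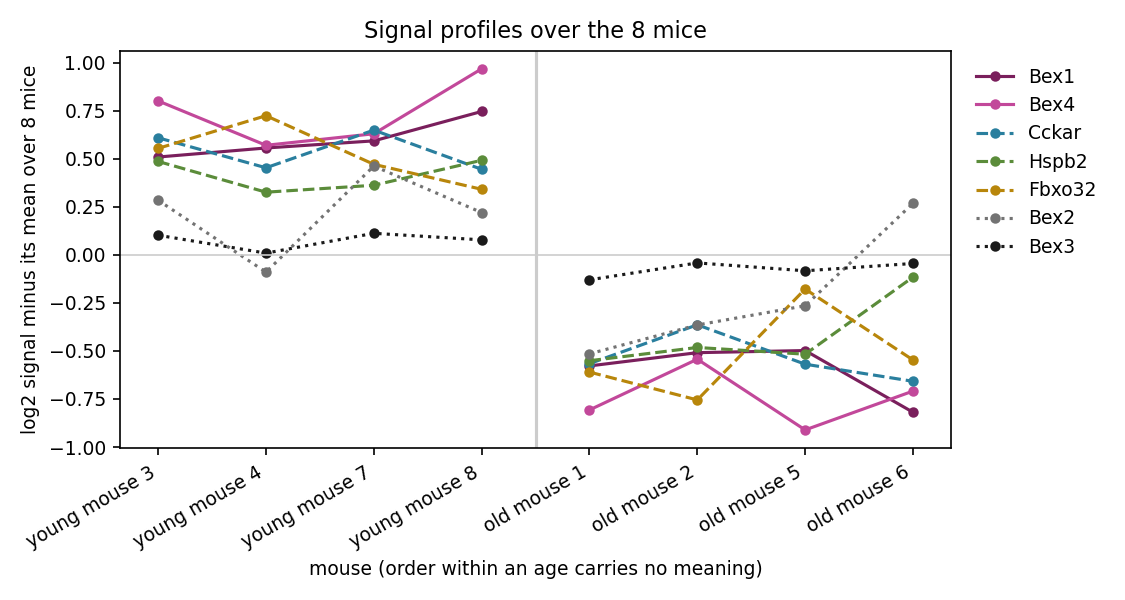
Log2 signal minus the mean of the gene over the 8 mice, for Bex1, Bex4 and genes close to them (Cckar, Hspb2, Fbxo32), with Bex2 and Bex3 dotted. The lines of Bex1, Bex4, Cckar, Hspb2 and Fbxo32 are above 0 in all young and below 0 in all old mice, Bex3 runs close to 0, and Bex2 crosses 0 in young mouse 4 and old mouse 6.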

How the data were processed

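The authors deposited intensity values, a linear signal for each of 45101 probe sets in each mouse. Their methods name robust multichip analysis in Partek, but the values (lowest 0.106, equal trimmed means with 2% left out at each end) have the form of scaled single-array signals, so the normalization is uncertain. A two-way analysis of variance was named, its second factor not. Here 64 control probe sets were left out, signals were taken to log2 with no floor, and ages were compared with limma 3.58.1 (lmFit, eBayes, two-sided) in R 4.3.3, adjusted by Benjamini-Hochberg over all 45037 probe sets, or over 18193 genes with the brightest probe set each for all genes outside the family. The annotation gives 34945 probe sets 1 symbol, 932 several and 9160 none, and 204 of those with 1 symbol did not match the RefSeq table. Gene order came from that table (GRCm38.p6), the files naming no build. Members, lists and motifs were chosen with earlier results of these data known, the motifs after the windows were read. Named genes were the Bex genes, all measured Tceal, Armcx and Gprasp genes, up to 4 genes a list with the smallest p, neighbours, and 5 closest genes each for Bex1 and Bex4. The steps were tested on simulated data. Alternatives were leaving out each mouse, no moderation, a trended robust prior, array weights, the brighter part of the probe sets, floors of 32 and 64, quantile and median normalization, mouse numbers as a block, no _x_at or _s_at probe sets, and means of probe sets.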

Additional observations from a re-analysis of the deposited data

Results flagged for a closer look

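In 6 of 110 groups of 4 mice looked at, 1 mouse stood apart from the other three of its age by Dixon's ratio at the 95% level, where chance alone gives about 1 in 20. No Bex gene was among them. Bhlhb9 was 841 in old mouse 5 beside 953 to 969 in the other old mice. Dbh was 147 in old mouse 5 beside 169 to 172. Hspb2, close to Bex1 in profile, was 456 in old mouse 6 beside 337 to 354. Sort1 was 2243 in old mouse 2 beside 2032 to 2062. Tceal7 was 16.4 in old mouse 2 beside 46.3 to 53.1. Gprasp1 was 1778 in young mouse 3 beside 1548 to 1582 in the other young mice.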

How the results depend on the processing

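No paired analysis was possible because the labels give old and young mice different numbers. With 4 mice an age and no detection call, dim probe sets such as Bex6 bound little. Leaving out each mouse in turn gave log2 differences of -1.24 to -1.13 for Bex1, -1.55 to -1.41 for Bex4, -0.60 to -0.34 for Bex2, -0.17 to -0.13 for Bex3 and -0.43 to 0.20 for Bex6, and 0 to 1 members called lower, 3 to 4 without overlap (2 with median centring, where Bex3 overlapped). Over all alternatives the adjusted p was 0.235 to 0.653 for Bex2 and 0.120 to 0.674 for Bex3. Members called lower were also 0 without moderation and 0 with mouse numbers 1 to 4 and 5 to 8 as a block.

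In the pooled lists (1 lower and 1 higher as reported) the counts were 0 and 0 without moderation, 8 and 7 with a trended and robust prior, and 8 and 4 with dim probe sets left out. The lower count was 2 at a floor of 32, at a floor of 64 and with the block, 0 with quantile normalization and 0 when the probe sets of a gene were averaged, and leaving out 1 mouse gave 0 lower and 0 to 1 higher. On the X (2 lower and 0 higher as reported) the lower count was 1 without moderation, 1 with quantile normalization, 1 with averaged probe sets and 0 with the block. The lower and higher counts were 7 and 3 with the trended prior, 6 and 4 without dim probe sets and 4 and 2 at both floors, and leaving out 1 mouse gave 0 to 1 lower and 0 higher. Among the neighbours 1 gene, Pak2 beside Bex6, was called higher without moderation and at both floors. For single genes the sign turned for Irak1 (0.00351) without _x_at and _s_at probe sets, and for Ngfr (-0.0104), Ntrk2 (-0.0977) and Sqstm1 (0.0159) with averaged probe sets. Leaving out 1 mouse gave -0.26 to 0.10 for Armcx6, -0.24 to 0.0235 for Gprasp2, -0.0447 to 0.25 for Ngfr and -0.0627 to 0.00968 for Tceal1. At a floor of 64 Bex6, Nxf3 and Tceal7, and without dim probe sets Bex6, gave no value. The cause of these changes was not tested.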
